A study of Mus musculus with 10 samples.

Results

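The 8 genes described here encode proteins that hold or remove calcium ions in cochlear hair cells. They are 6 calcium buffers, *Ocm*, *Pvalb*, *Calb1*, *Calb2*, *S100a1* and *S100b*, and 2 plasma membrane calcium pumps, *Atp2b1* and *Atp2b2*. They were chosen by symbol from the 34590 symbols listed in the count files, and all 8 had a row in each of the 10 libraries and passed the filter on low counts.

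Sound deflects the hair bundle and lets calcium in through the transduction channels at the tips of the stereocilia, and in inner hair cells (IHCs) calcium entry at the synapse also triggers transmitter release. EF-hand proteins bind the ions within the cytoplasm and so limit how far and for how long a calcium signal spreads. Calcium ATPases of the plasma membrane then expel the ions at the cost of ATP. Oncomodulin, the product of *Ocm*, is widely used to mark outer hair cells (OHCs), and PMCA2, the product of *Atp2b2*, is the pump of the stereocilia, whose loss causes deafness in mice.

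The libraries were made from handpicked cells of the mouse cochlea, with 2 libraries for each of 5 cell types. Supporting cells (SCs, Deiters' and pillar cells) came from mice carrying Fgfr3iCreER+ and Rosa26-CAG-loxP-stop-loxP-tdTomato+ at P27 (library 12) and P26 (library 11), where P is the postnatal day. Converted hair cells (cHCs), which the sample titles call rHCs, came at P33 (libraries 13 and 16) from mice with these alleles plus Atoh1-HA+ and alpha9 AChR-EGFP+. In these mice Fgfr3 drives the tamoxifen-inducible Cre that switches on the Atoh1 transgene and the tdTomato reporter, and cells were picked for tdTomato and EGFP together. The study gives tamoxifen at P12 and P13 for both SCs and cHCs. SCs and cHCs thus share the Cre, the reporter and the days of tamoxifen. They differ in transgene, EGFP reporter and age, and so also in the time since tamoxifen.

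OHCs at P7 (libraries 15 and 14) are labelled as heterozygous prestin-YFP knock-in, whereas the methods of the study give a Prestin-CreERT2 line with tdTomato and tamoxifen, and the labels do not settle which is right. OHCs called P22 came from prestin-YFP knock-in heterozygotes with titles that read as a male at P21 for the first library and a female at P22 for the other, so these duplicates also differ in sex, and they are called the P21 and the P22 library of these OHCs. IHCs came from Pval-Cre+ mice, males by their titles, at P74 and P75, which name their libraries, so the promoter that marks them is that of *Pvalb* itself. Their genotype label gives the same Rosa26 tdTomato allele as for SCs, their titles call the reporter line Ai9, and the methods of the study give Ai14. The library numbers form a low series (SCs, cHCs and OHCs at P7) and a high series (OHCs at P22 and IHCs), and a difference across the series cannot be told apart from one between the series. The titles give different ages to the duplicates of SCs, of OHCs at P22 and of IHCs, which therefore came from different animals, and the study calls the duplicates of each type biological. For cHCs and OHCs at P7 the labels name no animals. How many animals went into a library is not given in the sources used here, and every p value measures only the spread between these libraries.

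For 4 of the 10 sample records, the attached file proved to be that of a different library, and libraries are given here by the identity that the study's own library-numbered table settled. Library 13 was attached to the record of library 11, library 11 to that of 16, library 16 to that of 15, and library 15 to that of 13. With the files as attached to the records, all 31 calls described here were lost. The records of OHCs at P22 and of IHCs were not affected.

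Between 15016129 and 40518766 reads per library fell on genes. Levels are given in CPM, the counts scaled to a common library size. With the TMM scaling used for all levels here, 3 counts, taken as the limit of detection, corresponded to between 0.076 and 0.264 CPM. The highest limit was that of the P21 OHC library. Defining markers were checked against the labels. *Slc26a5*, the gene of the OHC motor prestin, was at 1061.0 to 3789.0 CPM in OHCs and under 1.4 CPM in SCs and IHCs. *Slc17a8*, the vesicular glutamate transporter of IHCs, was at 1762.5 and 1906.8 CPM in IHCs. *Sox9*, a supporting cell transcription factor, was at 402 and 242 CPM in SCs, at 126 and 16 CPM in cHCs, and at 96 and 64.5 CPM in IHCs. The summed level of 10 supporting cell markers was 1788.4 and 2377.9 CPM in SCs, 1255.0 and 887 CPM in cHCs, 111 and 376 CPM in OHCs at P7, 19.7 and 10.3 CPM in OHCs at P22, and 981 and 834 CPM in IHCs. Most of the sum in cHCs was *Fgfr3* (458 and 431 CPM) and *Prox1* (247 and 293 CPM). In SCs *Fgfr3* was at 167 and 312 CPM and *Prox1* at 14.7 and 53.7 CPM. The other markers of this list were lower in both cHC libraries than in both SC libraries.

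Levels below are CPM scaled by the TMM factors, means are given ± SD with n = 2 libraries, and differences are log2 fold changes with their standard error (SE) from edgeR's quasi-likelihood F-test. A call is a Benjamini-Hochberg adjusted p, or FDR, under 0.05 over the 16891 genes tested. When the 5 cell types were compared jointly, 6 of the 8 genes were called, against 7.81% of all genes tested. The edgeR FDR of this joint test was 3.21e-05 for *Ocm* and for *Calb2*, 0.000225 for *Pvalb*, 0.00142 for *Calb1*, 0.00263 for *S100a1* and 0.0296 for *Atp2b2*. It was 0.0644 for *S100b* and 0.289 for *Atp2b1*, the only members not called.

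**Figure D1:**
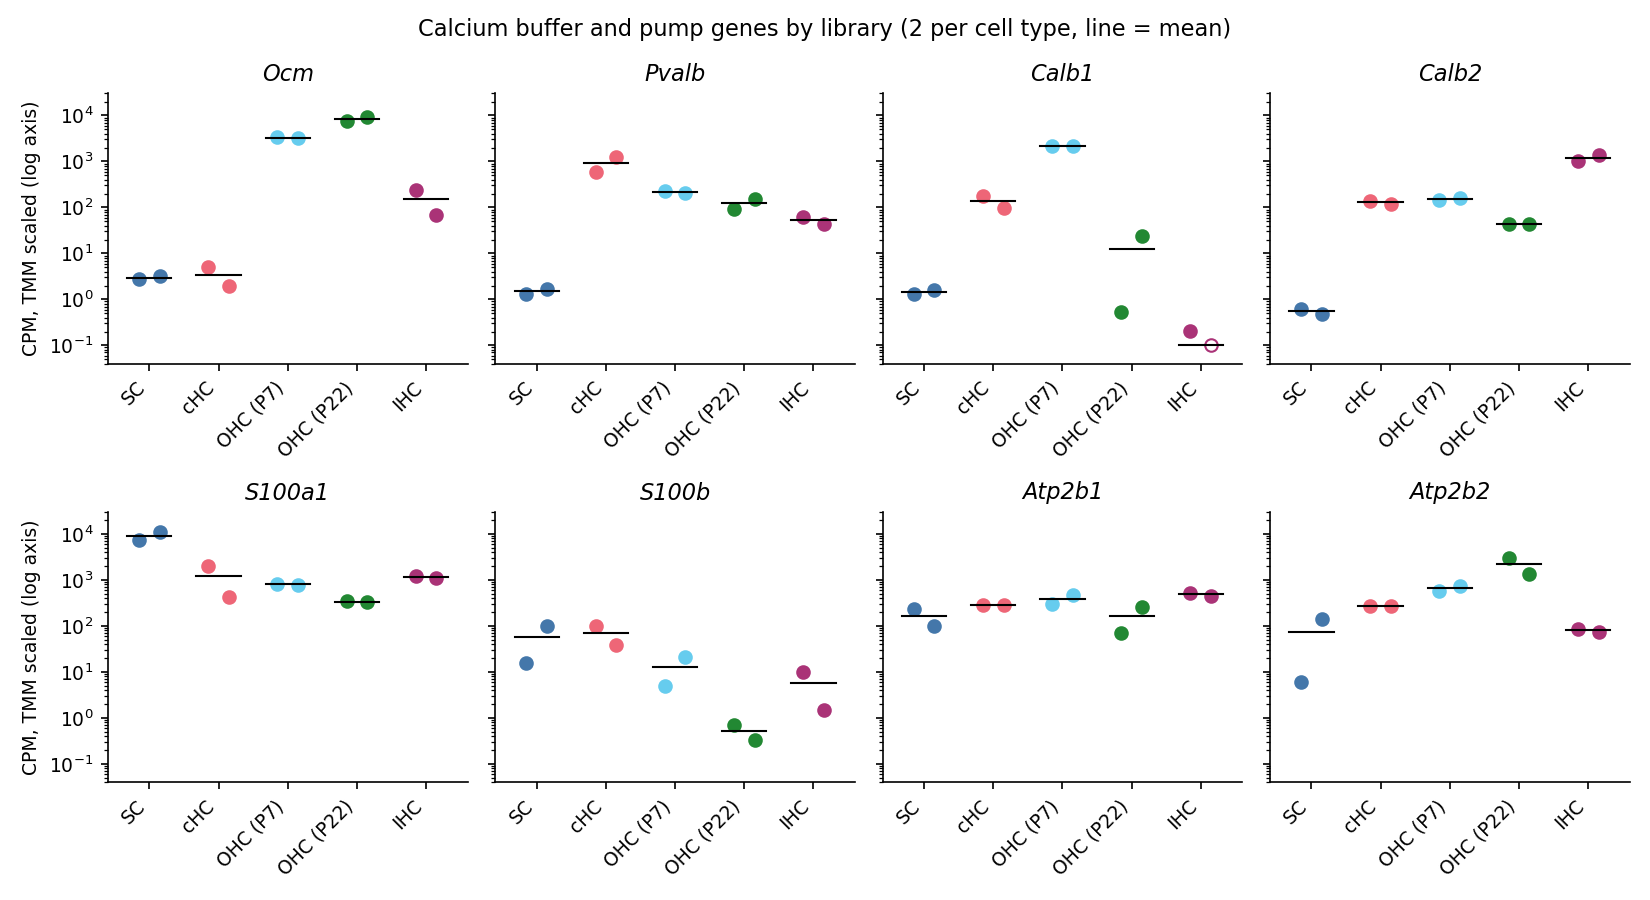
TMM-scaled CPM (log axis) of the 8 genes in each library, with 2 points for each cell type and a line at their mean. The open point is *Calb1* in the P75 IHC library, which had 0 counts and is drawn at its limit of 3 counts. *Ocm* lay between 1.91 and 4.98 CPM in SCs and cHCs and above 3160 CPM in every OHC library, while *Pvalb* was above 42 CPM in every hair cell and cHC library and under 2 CPM in SCs.

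The parvalbumin family holds *Ocm* and *Pvalb*, small cytoplasmic buffers with EF-hand motifs. Their genes lie apart on mm9, *Ocm* at chr5:144780673-144787539 and *Pvalb* at chr15:78021544-78036830, both on the minus strand, and neither shares exonic sequence with another annotated gene. *Ocm* was at 3400.2 and 3160.3 CPM in OHCs at P7 and at 7561.6 and 9277.6 CPM in OHCs at P22. In IHCs it was at 239 and 68.6 CPM. In cHCs it was at 4.98 and 1.91 CPM and in SCs at 2.71 and 3.16 CPM, so that cHCs and SCs overlapped.

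The order of the means was therefore OHCs at P22, OHCs at P7, IHCs, cHCs and SCs. The 2 ages of OHCs were not separated by the test (log2 difference 1.36, SE 0.57, edgeR FDR 0.332), although all 4 pairs of libraries were higher at P22, and limma-voom (adjusted p 0.000872) and edgeR without a filter on low counts (FDR 0.0411) called *Ocm* higher at P22. cHCs and SCs were not separated either (log2 difference 0.22, SE 0.57, edgeR FDR 0.914), and without cHC library 13 the difference was -0.63. OHCs at P22 exceeded cHCs by 11.26 (SE 0.86, edgeR FDR 0.000277) and OHCs at P7 exceeded them by 9.90 (SE 0.82, edgeR FDR 0.000631), both on the log2 scale. These 2 calls were kept without any one of the libraries compared and under every alternative except the files as attached.

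The *Ocm* level of cHCs was set beside those of other OHC genes. As a share of the mean of OHCs at P22, *Ocm* reached 0.0591% and 0.0226% in the cHC libraries. In the same libraries 3 genes of the OHC marker list reached 2.99% and 0.716% (*Slc26a5*), 3.31% and 3.74% (*Fam40b*) and 12.6% and 4.54% (*Ikzf2*). Of these, *Slc26a5* was higher in cHCs than in SCs by 6.56 (SE 0.74, edgeR FDR 0.000818) and *Fam40b* by 5.54 (SE 0.42, edgeR FDR 6.83e-05), while *Ikzf2* (-1.98, edgeR FDR 0.313) was not called.

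IHCs held an intermediate level of *Ocm*, lower than OHCs at P22 (log2 difference -5.77, SE 0.69, edgeR FDR 0.00368) and than OHCs at P7 (-4.41, SE 0.65, edgeR FDR 0.0175) and higher than cHCs by 5.49 (SE 0.68, edgeR FDR 0.00594). The call against cHCs was lost with limma-voom, and those against cHCs and OHCs at P7 were lost when only the cell types compared were fitted. In IHCs *Ocm* was at 2.84% and 0.815% of the mean of OHCs at P22, while *Slc26a5* was at 0.0402% and 0.0263% of its own mean there. In bulk libraries, fewer cells that express a gene and less RNA per cell cannot be told apart, which holds for every level here.

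*Pvalb* had its highest level in cHCs. It was at 599 and 1227.5 CPM in cHCs, at 228 and 204 CPM in OHCs at P7, at 91.4 and 153 CPM in OHCs at P22, at 62.1 and 42.9 CPM in IHCs and at 1.33 and 1.7 CPM in SCs. Both cHC libraries lay above all other libraries, and both SC libraries lay below all others. The difference between cHCs and SCs was 9.23 (SE 0.74, edgeR FDR 8.22e-05), from means of 913 and 1.52 CPM. This call was kept in each of the 4 fits that left out a library.

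cHCs also exceeded mature hair cells in *Pvalb*. OHCs at P22 were lower than cHCs by a log2 difference of -2.90 (SE 0.55, edgeR FDR 0.0174) and IHCs by -4.12 (SE 0.58, edgeR FDR 0.00922). The first call was lost when only those cell types were fitted, without cHC library 16 (log2 difference -2.30, edgeR FDR 0.111) and without the P21 OHC library (-2.62, edgeR FDR 0.0938), and the call against IHCs was lost without the P75 IHC library (-3.88, edgeR FDR 0.0621). OHCs at P7, from the same series of library numbers as cHCs, differed from them by -2.08 (SE 0.54, edgeR FDR 0.177), which was not a call although the libraries did not overlap. DESeq2 (adjusted p 0.0109), limma-voom (adjusted p 0.0341) and edgeR without a filter on low counts (FDR 0.0325) did call it. Between OHCs at P7, OHCs at P22 and IHCs edgeR called no difference in *Pvalb*, whereas DESeq2 called IHCs lower than OHCs at P7 (-2.01, adjusted p 0.0183).

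Because cHCs were highest in *Pvalb* but overlapped SCs in *Ocm*, the counts of these genes were set against each other within each library. The number of *Ocm* reads per *Pvalb* read was 82.7 and 60.8 in OHCs at P22, 14.9 and 15.5 in OHCs at P7 and 3.86 and 1.6 in IHCs. In cHCs it was 0.00832 and 0.00155, below every other cell type. SCs gave 2.03 and 1.86, on fewer than 120 reads of each gene. Spiral ganglion fibres also contain parvalbumin, and the summed level of 8 neuronal markers was 4.62 and 10.5 CPM in SCs, 214 and 571 CPM in cHCs, 298 to 614 CPM in OHCs and 687 and 965 CPM in IHCs. *Prph* was at 0 in all 10 libraries, and most of the sum in cHCs was *Snap25* (125 and 361 CPM) and *Nefm* (66.2 and 105 CPM), which were at 208 to 348 and at 39.2 to 111 CPM in the OHC libraries. The part of nerve fibres in the *Pvalb* level was not tested.

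Calbindin and calretinin, encoded by *Calb1* and *Calb2*, are larger buffers with several EF hands that are also common in neurons. *Calb1* lies at chr4:15808411-15835211 on the plus strand of mm9 and *Calb2* at chr8:112661402-112692110 on the minus strand. *Calb1* was at 2200.7 and 2138.5 CPM in OHCs at P7, at 175 and 94.9 CPM in cHCs, at 0.529 and 23.9 CPM in OHCs at P22 and at 1.33 and 1.59 CPM in SCs. In IHCs it was at 0.202 CPM, from 6 counts, and at 0, where 3 counts would be 0.103 CPM. The duplicates agreed closely in OHCs at P7 and disagreed in OHCs at P22, where they lay on both sides of the SC libraries.

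OHCs at P7 exceeded SCs in *Calb1* by 10.53 (SE 1.72, edgeR FDR 0.00709). IHCs were lower than OHCs at P7 (edgeR FDR 0.0149) and than cHCs (edgeR FDR 0.021), but the IHC level rests on 6 counts in all, so the fitted folds depend on the prior count and are not given. The difference between the ages of OHCs was -7.46 (SE 1.52) and was not called by edgeR (FDR 0.0636). It was past the threshold with DESeq2, with limma-voom, without a filter on low counts and with the filter of more than 35 CPM. Without the P22 library it was -12.00, but the level of OHCs at P22 then rests on 6 counts in the P21 library, so this fold is poorly fixed. cHCs lay between OHCs at P7 and OHCs at P22 in *Calb1*, without overlap. The difference of OHCs at P7 from cHCs was 4.01 (SE 1.29, edgeR FDR 0.304), and it was called with DESeq2 (adjusted p 0.0242), with limma-voom (adjusted p 0.00152), without a filter on low counts and when only those cell types were fitted (FDR 0.0342). The difference of OHCs at P22 from cHCs was -3.46 (SE 1.26, edgeR FDR 0.177), and it was called with DESeq2 (adjusted p 0.0279) and without a filter on low counts. Without the P22 OHC library it was -7.99, which rests on the same 6 counts in the P21 library.

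*Calb2* was highest in IHCs. It was at 1044.5 and 1369.9 CPM in IHCs, at 142 and 160 CPM in OHCs at P7, at 141 and 116 CPM in cHCs, at 43.6 and 44.1 CPM in OHCs at P22 and at 0.622 and 0.478 CPM in SCs. Both IHC libraries were above all others, cHCs lay just below OHCs at P7, and SCs were lowest. IHCs exceeded OHCs at P22 by 4.78 (SE 0.50, edgeR FDR 0.00144), a call within the high series of library numbers that was kept in each fit that left out a library. They exceeded cHCs by 3.23 (SE 0.46, edgeR FDR 0.00935) and OHCs at P7 by 3.0 (SE 0.46, edgeR FDR 0.0229).

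The call of *Calb2* between IHCs and OHCs at P7 was lost without each of the 4 libraries in turn, with log2 differences of 2.79 to 3.21. The call between IHCs and cHCs was lost without cHC library 16 (3.09, edgeR FDR 0.0788) or the P75 IHC library (3.02, edgeR FDR 0.0632). cHCs rose above SCs by 7.87 (SE 0.58, edgeR FDR 5.58e-05), from a mean of 0.55 ± 0.102 CPM to 129 ± 17.8 CPM, and differed from OHCs at P7 by 0.23 (SE 0.43, edgeR FDR 0.922). The difference of OHCs at P22 from cHCs was -1.55 (SE 0.44, edgeR FDR 0.0845), not a call, and adjusted p values fell under 0.05 with DESeq2 and with the filters of 10 counts in every library and of more than 35 CPM.

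The S100 proteins are small dimeric EF-hand proteins that act as buffers and as calcium sensors. *S100a1* (chr3:90314956-90318314, minus strand) was highest in SCs. It was at 7255.0 and 10808.3 CPM in SCs, at 2056.9 and 431 CPM in cHCs, at 1232.5 and 1078.6 CPM in IHCs, at 809 and 791 CPM in OHCs at P7 and at 353 and 324 CPM in OHCs at P22. Among all genes with an annotated length it ranked 4th by reads per length in both SC libraries. SCs lay above every other library, and the cHC libraries spanned the levels of OHCs at P7 and of IHCs.

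*S100a1* was lower than in SCs in each of the other cell types. The log2 difference was -4.74 in OHCs at P22 (SE 0.66, edgeR FDR 0.00159), -3.50 in OHCs at P7 (SE 0.62, edgeR FDR 0.0109), -2.97 in IHCs (SE 0.60, edgeR FDR 0.0251) and -2.86 in cHCs (SE 0.60, edgeR FDR 0.0381). The call in cHCs was lost without SC library 11 (-2.54, edgeR FDR 0.0761) and when only SCs and cHCs were fitted (-2.79), and that in IHCs without the P74 (-3.07, edgeR FDR 0.064) or the P75 library (-2.88, edgeR FDR 0.0753). Among cHCs, OHCs and IHCs edgeR called no difference in *S100a1*, but the answer for OHCs at P22 against cHCs turned on cHC library 16. Without cHC library 16 OHCs at P22 were called lower than cHCs (-2.61, edgeR FDR 0.0029), and over the 4 fits that left out a library that difference ran from -2.61 to -0.36. Without a filter on low counts edgeR called OHCs at P22 lower than cHCs (FDR 7.35e-05), IHCs higher than OHCs at P22 (FDR 0.000338) and, at an FDR that rounds to 0.05, OHCs at P22 lower than at P7.

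The cHC libraries differed from each other in *S100a1*, with 2056.9 CPM in library 13 and 431 CPM in library 16. Of the 10 supporting cell markers, 9 were also higher in library 13, by between 1.06 and 48.2 times. The widest gap was that of *Gjb2*, the connexin of supporting cells, at 83.4 and 1.73 CPM, and *Sox9* was at 126 and 16 CPM. *Fgfr3*, whose promoter drives the Cre, was at 458 and 431 CPM. *Prox1*, a transcription factor gene, was at 247 CPM in library 13 and 293 CPM in library 16, the only one of the 10 that was higher in library 16. The part of residual or admixed supporting cell RNA in the *S100a1* level was not tested. In IHCs, where *S100a1* was at 1232.5 and 1078.6 CPM, *Gjb2* made up 611 and 468 CPM of the supporting cell sum.

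*S100b*, best known from glia, lies at chr10:75716598-75723904 on the plus strand. It was at 15.9 and 98.8 CPM in SCs, at 97.6 and 39.4 CPM in cHCs, at 4.97 and 20.6 CPM in OHCs at P7, at 10.1 and 1.48 CPM in IHCs and at 0.705 and 0.337 CPM in OHCs at P22. The duplicates of SCs, OHCs at P7 and IHCs differed by over 4 times, and OHCs at P22 lay below all others. OHCs at P22 were called lower than cHCs (log2 difference -7.05, SE 1.63, edgeR FDR 0.042) and than SCs (-6.80, SE 1.62, edgeR FDR 0.0267). Each of these calls was lost in 3 of the 4 fits that left out a library and with limma-voom, and the P22 level rests on 8 counts in each library. The summed level of 6 Schwann and satellite glia markers was 22.6 to 37 CPM in SCs and cHCs, 0.3 and 14.6 CPM in OHCs at P7, 21 and 113 CPM in OHCs at P22 and 47.8 and 131 CPM in IHCs. The part of glial RNA in the *S100b* level was not tested.

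To compare the buffers with one another, each CPM was divided by the summed exon length of the gene in kb, and the share of each gene in the sum of the 6 was taken. *Ocm* held 94.7 ± 0.596% of this sum in OHCs at P22 and 70.1 ± 0.756% in OHCs at P7 (SD, n = 2). In OHCs at P7 *S100a1* followed with 18.1 ± 0.45% and *Calb1* with 7.02 ± 0.145%, while at P22 *S100a1* held 4.08 ± 0.804% and *Calb1* 0.0191 ± 0.0255%. SCs were made up of *S100a1* to 99.7 ± 0.22%. In IHCs *S100a1* held 63.5 ± 0.98%, *Calb2* 26.7 ± 7.14% and *Ocm* 7.79 ± 5.67%.

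The cHC libraries disagreed on the order of the buffers. *Pvalb* held 15.4% in library 13 and 61.5% in library 16, and *S100a1* held 79.5% and 32.4%. *Calb2* held 2.83 ± 0.922% and *Calb1* 0.996 ± 0.0374%, and *Ocm* 0.159 ± 0.0329%. The summed buffer level was 3728.6 and 1916.1 CPM per kb in cHCs and 2768.6 and 2476.5 in IHCs, against 10470.3 and 15647.1 in SCs, 6563.1 and 6193.6 in OHCs at P7 and 10937.7 and 13300.9 in OHCs at P22. Both cHC and both IHC libraries were thus below every SC and OHC library in the total, with no test run on it.

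**Figure D2:**
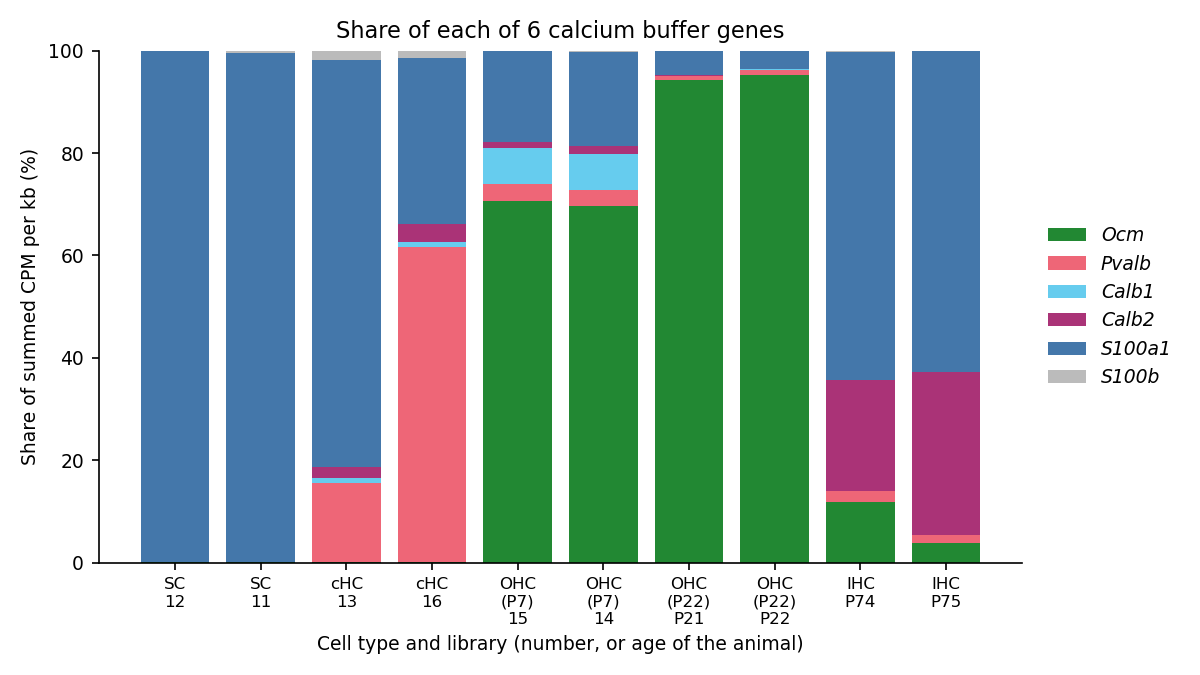
Share of each of 6 calcium buffer genes in their summed CPM per kb (percent, from 0), by library. *S100a1* fills the SC bars, *Ocm* leads in all 4 OHC bars, *S100a1* and *Calb2* lead in IHCs, and the cHC bars hold 15.4% and 61.5% *Pvalb* with the rest mainly *S100a1*.

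The 2 pumps are long genes, *Atp2b1* (PMCA1) at chr10:98377786-98488777 on the plus strand and *Atp2b2* at chr6:113695663-113992607 on the minus strand. PMCA1 is the pump found in most cell types and in hair cells sits mainly in the basolateral membrane. *Atp2b1* was at 532 and 439 CPM in IHCs, at 293 and 481 CPM in OHCs at P7, at 292 and 279 CPM in cHCs, at 69.7 and 262 CPM in OHCs at P22 and at 228 and 99.1 CPM in SCs. The means ran from 164 ± 91.1 CPM in SCs to 485 ± 66 CPM in IHCs, a range of under 3-fold, and none of the 10 edgeR comparisons was called. At an unadjusted p under 0.05, IHCs exceeded SCs (1.57, SE 0.66, edgeR FDR 0.256) and OHCs at P22 (1.55, SE 0.66, edgeR FDR 0.301). The first of these passed 0.05 after adjustment with limma-voom.

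*Atp2b2* was at 3026.0 and 1362.5 CPM in OHCs at P22, at 562 and 753 CPM in OHCs at P7, at 272 and 277 CPM in cHCs, at 86.5 and 73.1 CPM in IHCs and at 6.17 and 144 CPM in SCs. Both libraries of OHCs at P22 were above all others, cHCs lay above IHCs and SCs without overlap, and the SC libraries lay on both sides of the IHC libraries. OHCs at P22 exceeded SCs by 4.87 (SE 1.11, edgeR FDR 0.0222), the only call among the 10 edgeR comparisons of *Atp2b2*. It was lost when only those cell types were fitted (4.81) and without the P21 library (4.11, edgeR FDR 0.0631), whose TMM factor of 0.583 set it apart from the other 9 libraries at 0.9298 to 1.1993.

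The difference between IHCs and OHCs at P22 in *Atp2b2* was -4.78 (SE 1.11) with an edgeR FDR of 0.0678. It passed the threshold with DESeq2, with limma-voom, with each of the other filters and when only those cell types were fitted. cHCs differed from SCs by 1.87 (SE 0.98, edgeR FDR 0.393) and from OHCs at P22 by 3.0 in the other direction (OHCs minus cHCs, SE 1.02, edgeR FDR 0.149). The latter was called with DESeq2 (adjusted p 0.0226), with limma-voom, the method of the study (adjusted p 0.0171), and without a filter on low counts (FDR 1.42e-05). The SC libraries differed most in this gene. In SC library 11 *Atp2b2* was at 144 CPM and the OHC transcription factor gene *Ikzf2* at 296 CPM, against 6.17 and 39.9 CPM in library 12. *Slc26a5* was at 0.531 and 0.755 CPM in libraries 11 and 12. Without library 11 the difference of cHCs from SCs was 5.48, that of IHCs from SCs 3.69 and that of OHCs at P7 from SCs 6.74. Without library 12 these differences were 0.93, -0.85 and 2.19.

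Per length, the pumps changed places between cell types. The ratio of *Atp2b2* to *Atp2b1* in CPM per kb was 28.8 and 3.45 in OHCs at P22, 1.27 and 1.04 in OHCs at P7, 0.62 and 0.659 in cHCs, and 0.108 and 0.11 in IHCs. SC libraries gave 0.018 and 0.962. *Atp2b2* thus made up 96.6% and 77.5% of the sum of the 2 pumps in OHCs at P22 and under 10% in IHCs. These ratios were about 1.5 times higher when the longest transcript stood for the gene.

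The other plasma membrane pump genes gave a further difference in cHCs. *Atp2b3* (PMCA3), known mainly from neurons, was at 74.1 and 96.7 CPM in cHCs and at 0.0444 to 5.43 CPM in the other 8 libraries. cHCs exceeded SCs by 9.28 (SE 1.59, edgeR FDR 0.0116) and OHCs at P22 were lower than cHCs (-7.20, SE 1.46, edgeR FDR 0.0239), while IHCs (-6.16, edgeR FDR 0.0749) and OHCs at P7 (-4.37, edgeR FDR 0.235) were not called. The level in SCs rests on 1 and 8 counts. Among the nearest relatives, *Atp2b4* (PMCA4) was at 27.7 and 212 CPM in cHCs, 1.76 and 80.9 CPM in OHCs at P22 and 30.5 and 0.0344 CPM in IHCs, and *Slc8a1*, a sodium-calcium exchanger, was at 73.4 and 92.9 CPM in cHCs and at 0.133 CPM and 0 in SCs. *Atp2a2*, the common pump of the endoplasmic reticulum, ran from 81.4 to 326 CPM over all libraries. None of the 10 edgeR comparisons of these 3 genes was called.

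**Figure D3:**
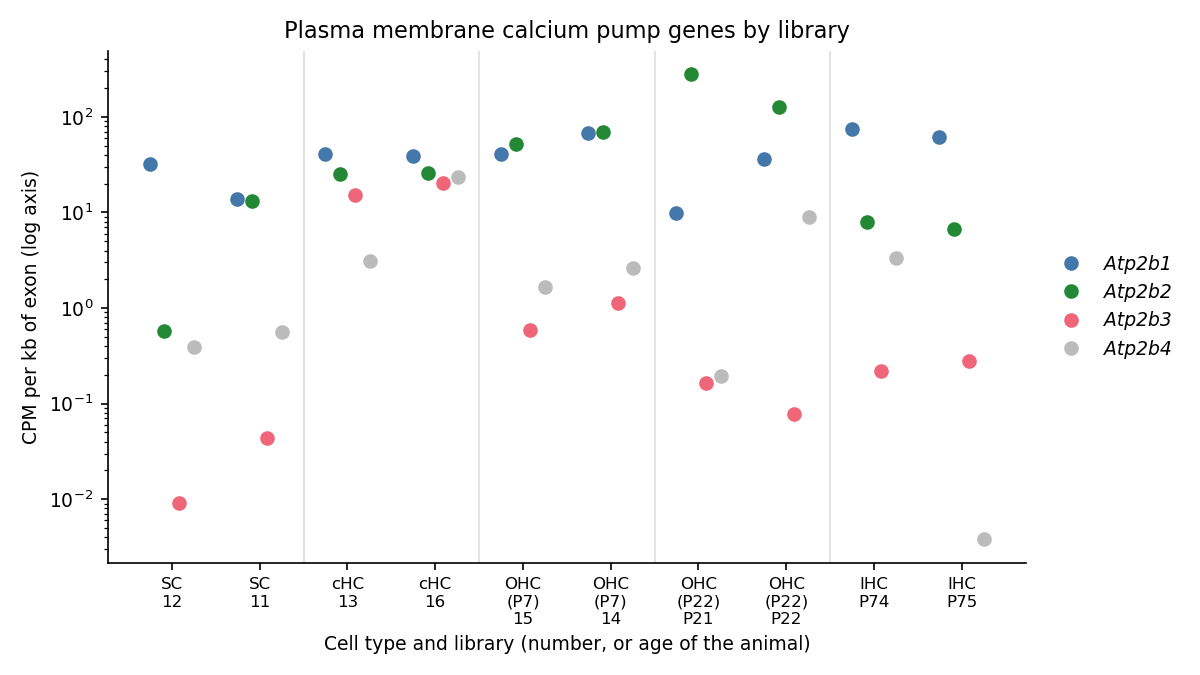
CPM per kb of exon (log axis) of the plasma membrane calcium pump genes in each library, with *Atp2b1* in blue, *Atp2b2* in green, *Atp2b3* in red and *Atp2b4* in grey. *Atp2b2* is the highest of the 4 in OHCs at P22, *Atp2b1* in IHCs and cHCs, and *Atp2b3* is above 15 CPM per kb only in the cHC libraries.

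Set out by comparison, the conversion contrast of cHCs with SCs called 3 of the 8 genes, against 1.84% of all genes tested: *Pvalb* and *Calb2* were higher and *S100a1* was lower. *Calb1* was at 175 and 94.9 CPM against 1.33 and 1.59 CPM with a difference of 6.52 (SE 1.46) and an edgeR FDR of 0.0517. It was called with RLE factors, DESeq2, limma-voom, no filter, the filter of more than 35 CPM, the fit of only those cell types and without either cHC library, with adjusted p values from 7.71e-18 to 0.0476. *Ocm*, *S100b* and both pumps were not called. The median log2 difference of the 8 genes was 1.34, beside 0.03 over all genes. OHCs at P22 against cHCs called 3 genes (*Ocm* higher, *Pvalb* and *S100b* lower), against 3.18% of all genes, with a median of -1.72 beside -0.19. OHCs at P7 against cHCs called *Ocm* alone, against 0.343%, and IHCs against cHCs called 4 genes (*Ocm* and *Calb2* higher, *Pvalb* and *Calb1* lower), against 0.924%.

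Of the comparisons with SCs, OHCs at P22 called 6 genes, against 8.02% of all genes tested, with *Ocm*, *Pvalb*, *Calb2* and *Atp2b2* higher and *S100a1* and *S100b* lower. OHCs at P7 called 5, against 3.41%, with *Ocm*, *Pvalb*, *Calb1* and *Calb2* higher and *S100a1* lower. IHCs called 4, against 2.65%, with *Ocm*, *Pvalb* and *Calb2* higher and *S100a1* lower. These 3 comparisons share the SC libraries. The median log2 difference of the 8 genes was 3.97, 5.14 and 0.83, beside a median of 0 over all genes.

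Among the endogenous hair cells, IHCs against OHCs at P22 called *Ocm* (lower) and *Calb2* (higher), against 1.46% of all genes tested. IHCs against OHCs at P7 called *Ocm* and *Calb1* (lower) and *Calb2* (higher), against 0.379%. OHCs at P22 against P7 called 0 of the 8 genes with edgeR, against 0.551%, and 4 of them (*Ocm*, *Calb1*, *Calb2* and *S100b*) had an unadjusted p under 0.05, as did 2340 of the 16891 genes. DESeq2 called 3 of the 8, against 9.71% of all genes tested, and limma-voom 2, against 0.651%.

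**Figure D4:**
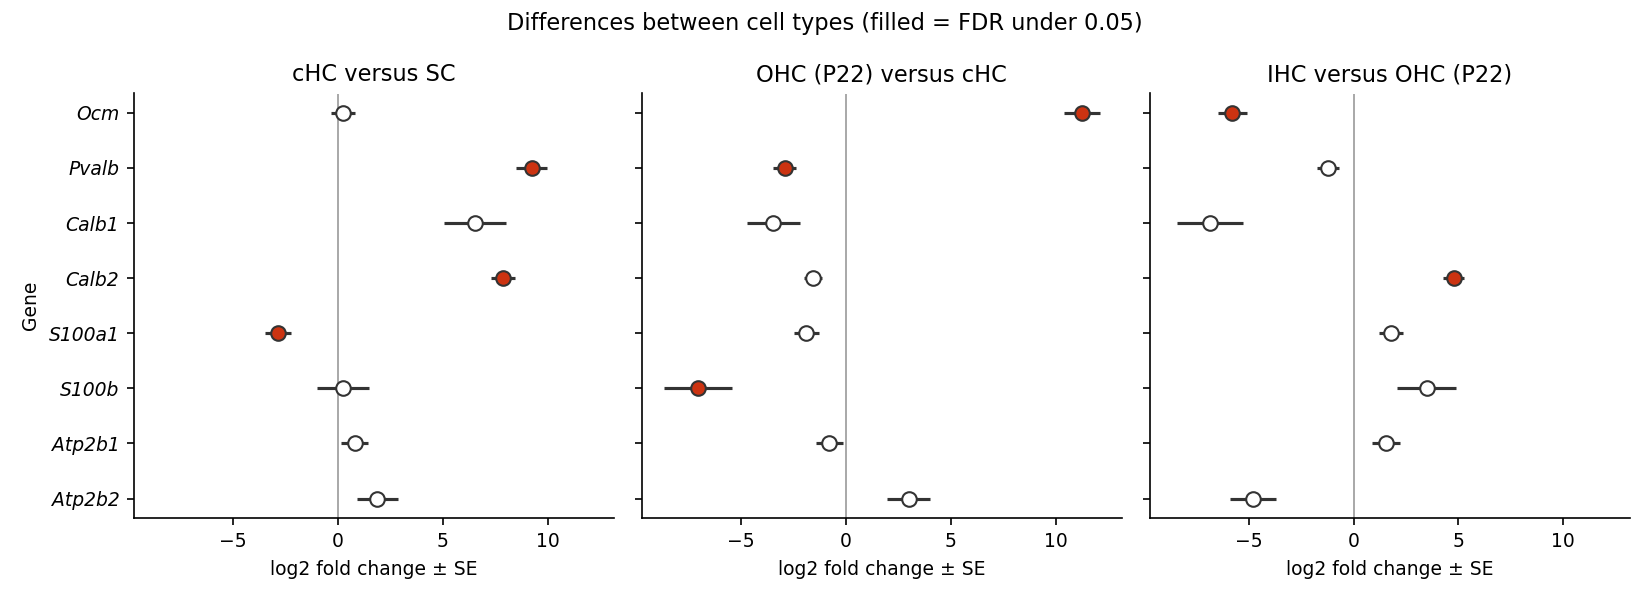
Log2 fold changes with SE bars of the 8 genes in cHCs against SCs, OHCs (P22) against cHCs and IHCs against OHCs (P22), from edgeR, with filled points for an FDR under 0.05. *Pvalb* and *Calb2* lie to the right and *S100a1* to the left in the first panel, and *Ocm* lies at 0.22 there and at 11.26 in the second.

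The rest of the calcium handling machinery was followed through 6 further lists. Among relatives of calmodulin, the ubiquitous calcium sensor, *Calml4* was higher in cHCs than in SCs by 3.20 (SE 0.58, edgeR FDR 0.0165), at 195 and 309 CPM against 39.7 and 15.4 CPM. *Calm2*, a calmodulin gene, was at 7316.5 and 6943.3 CPM in IHCs and exceeded OHCs at P22 by 2.05 (SE 0.33, edgeR FDR 0.0161).

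Of 24 other EF-hand genes, 21 were tested and 0 were called by edgeR between cHCs and SCs (median log2 difference -0.09), against 1.84% of all genes, and 4 between OHCs at P22 and cHCs, against 3.18%. *Sri*, the gene of sorcin, which binds ryanodine receptors, was at 276 to 845 CPM in the OHC libraries and at 13.1 to 49.3 CPM in the other 6. OHCs at P22 exceeded cHCs in it by 5.01 (SE 0.65, edgeR FDR 0.00463), OHCs at P7 exceeded cHCs by 3.60 (SE 0.61, edgeR FDR 0.0361), and IHCs were lower than OHCs at P22 (-4.47, SE 0.63, edgeR FDR 0.00869). *S100a13* lay lower in OHCs at P22 than in cHCs (-4.35, SE 0.92, edgeR FDR 0.028), from 519 and 192 CPM in cHCs to 31.8 and 3.24 CPM, and was at 1994.5 and 1991.6 CPM in SCs. *S100a6* was also lower in OHCs at P22 than in cHCs (edgeR FDR 0.0341), with 5 and 0 counts in OHCs, and *Efhd2* was higher (6.32, SE 1.15, edgeR FDR 0.0143).

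Of 12 other genes of calcium extrusion across the plasma membrane, 10 were tested and 2 were called between cHCs and SCs, against 1.84% of all genes: *Atp2b3* and *Slc8a2*, another sodium-calcium exchanger, which was called in all 4 comparisons with SCs. It was at 19.7 and 78 CPM in cHCs, at 74.9 to 266 CPM in OHCs, at 135 and 146 CPM in IHCs and at 0.178 and 0.133 CPM in SCs. cHCs exceeded SCs by 8.28 (SE 1.02, edgeR FDR 0.00141), with 4 and 5 counts in SCs. *Slc24a3*, a potassium-dependent exchanger, was at 271 and 297 CPM in IHCs against 0.617 and 8.42 CPM in OHCs at P22 (5.96, SE 1.18, edgeR FDR 0.0345).

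Of 7 genes of the internal store pumps and their small regulators (*Pln* and *Sln*), 6 were tested. Of these, 1 was called between IHCs and OHCs at P22 (against 1.46% of all genes) and 0 between IHCs and OHCs at P7 (against 0.379%). The called gene, *Atp2a3* (SERCA3), was at 1289.3 and 1547.7 CPM in IHCs, at 60.9 and 27 CPM in OHCs at P7 and at 0.0266 to 4.97 CPM in the other 6 libraries. IHCs exceeded OHCs at P22 by 8.70 (SE 1.29, edgeR FDR 0.0105). Of 16 genes of store buffering, release and refilling (the last being *Stim* and *Orai* genes), all tested, 1 was called in each of these comparisons. That gene, *Ryr1*, which encodes a calcium release channel, was at 95.2 CPM or more in every OHC library, at 21.3 and 24.2 CPM in cHCs and under 0.4 CPM in IHCs and SCs. cHCs exceeded SCs by 6.36 (SE 0.89, edgeR FDR 0.0033) and were below OHCs at P22 by 3.42 (OHCs minus cHCs, SE 0.75, edgeR FDR 0.0338).

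*Ryr2* was at 223 and 175 CPM in OHCs at P22 and at 0.298 and 2.01 CPM in cHCs (7.41, SE 1.32, edgeR FDR 0.0134). Of the 3 inositol trisphosphate receptor genes, which encode release channels of the same stores, 2 were lower in OHCs at P22 than in cHCs. *Itpr3* was at 109 and 266 CPM in cHCs and under 0.1 CPM in OHCs at P22 (edgeR FDR 0.0295), and *Itpr1* was at 61.2 and 54.8 CPM in cHCs and at 2.12 and 6.61 CPM in OHCs at P22 (-3.72, SE 0.83, edgeR FDR 0.0343). *Itpr2* was at 51.8 and 4.8 CPM in cHCs and at 16.8 and 6.06 CPM in OHCs at P22 (-1.31, SE 1.69, edgeR FDR 0.716). Of the 16 genes of store buffering, release and refilling, 4 were called between OHCs at P22 and cHCs, against 3.18% of all genes, and 1 between cHCs and SCs, against 1.84%. All 9 genes of mitochondrial calcium uptake were tested and 0 were called by edgeR in any of the 10 comparisons. The share of all genes called ran from 0.343% to 8.02% over these comparisons, so 0 calls among 9 genes is near that share.

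For the 8 genes, the genes most alike across the 10 libraries were found by Pearson's r of log2 CPM with a prior count of 2, as a description over 5 cell types in duplicate. For *Ocm* they were *Atp13a3* (r = 0.981), *Msrb3* (0.980) and *Tsku* (0.974), and for *Pvalb* they were *Chga* (r = 0.988), *Kcnab2* (0.970) and *Fam53c* (0.969). *Calb2* was most like *Cyld* (r = 0.978) and *Otof* (0.971), the gene of the synaptic calcium sensor otoferlin. *S100a1* was most like *AI646023*, *Gng5* and *Glul*, the glutamine synthetase gene, with r of 0.973, 0.973 and 0.972. *Atp2b2* was most like *Taf15* (r = 0.978), and *Calb1* most like *Ttc18* (0.958).

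*Chga*, the gene of a secretory granule protein, shared the cHC peak of *Pvalb*, with means of 81.9 CPM in cHCs, 38.1 in OHCs at P7, 13.9 in OHCs at P22, 9.25 in IHCs and 0.164 in SCs. Within the set of 8, *Pvalb* and *S100a1* ran most opposed (r = -0.790), and *Ocm* and *Atp2b2* (r = 0.703) and *Pvalb* and *Calb2* (r = 0.719) ran most together. *Ocm* and *Pvalb*, the parvalbumins, gave r = 0.303.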

How the data were processed

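RNA from handpicked cochlear cells was turned into cDNA with the Ovation RNA-Seq System, an isothermal amplification without molecular identifiers, and sequenced from both ends. The submitters' processing notes name CASAVA 1.7, STAR, BWA, HTSeq and the mm9 build, with which the authors made the counts. The strand setting of the counting is not given in the sources used here. The deposited values are raw counts per gene symbol, without normalization. Amplified reads are not independent molecules, so limits from 3 counts cover counting error only.

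Each file was matched to the library-numbered CPM table of the study, as read here, at the 1728 to 1970 genes found in both whose counts reached 10. The matching column was a constant multiple of the counts (coefficient of variation at most 0.000138%, against at least 170.4% for any other column), and 4 of 10 files were attached to another record. Sample groups are those of the labels.

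All 10 libraries entered one edgeR 4.0.16 quasi-likelihood model (R 4.3.3, TMM, filterByExpr, common dispersion 1.12, Benjamini-Hochberg over 16891 genes, 2-sided). The standard error was the log2 fold change divided by the square root of F. Lengths and coordinates came from the GENCODE annotation of mm9, which gave a length to 33260 of 34590 symbols. The alternatives were RLE factors, DESeq2 1.42.0 without outlier handling, limma 3.58.1 with voom (the study's method), 3 other filters, fits of only the cell types compared, the longest transcript for lengths, the files as attached and leaving out each library. The edgeR, limma-voom and DESeq2 fits were also run on simulated counts, for cHCs against SCs only. With 2 libraries a group, an exact permutation test cannot pass 0.05.

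The 8 genes and all gene lists were chosen with earlier results of these data known. Named besides these 8 are the 3 genes most alike to each by Pearson's r, the called genes of the other lists in cHCs against SCs, OHCs at P22 against cHCs and IHCs against OHCs at P22 (at most 4 of a list), 4 near relatives of the pumps, and markers. Some genes that these rules select are not reported here.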

Additional observations from a re-analysis of the deposited data

How the results depend on the processing

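Each group had 2 libraries, so leaving out 1 left a lone library that was assumed to vary like the other groups. Reads from amplified cDNA of few cells gave a common dispersion of 1.12, and levels of a few counts (*Calb1* in IHCs and in the P21 OHC library, *S100b* in OHCs at P22, *Calb2* in SCs) are poorly fixed. The labels name no animal shared between cell types, and no paired analysis was run. Within the low series, the titles of libraries 12, 13 and 15 carry a sample number that those of libraries 11, 16 and 14 lack. Each set holds a library of SCs, of cHCs and of OHCs at P7. Reads on genes were 22597688, 19621193 and 15016129 in the first set and 40518766, 33162033 and 37338042 in the second. What separates the sets is not given, and no model with a term for them was fitted.

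Of the 31 calls among 80 tests, RLE factors lost 0 and gained 1, DESeq2 lost 0 and gained 16, limma-voom lost 6 and gained 8, no filter on low counts lost 0 and gained 20, the filter of more than 35 CPM lost 0 and gained 6, and fits of only the cell types compared lost 7 and gained 4 of 79 tests. The filter of 10 counts in every library left 60 tests, with 0 lost of 26 calls and 2 gained. The calls lost in fits of only 2 cell types include *Pvalb* in OHCs at P22 against cHCs and in IHCs against SCs, *Calb2* in OHCs at P22 against SCs and *Ocm* in IHCs against OHCs at P7, and limma-voom lost *Ocm* and *Pvalb* in IHCs against SCs and *Pvalb* in OHCs at P22 against SCs. The cause was not tested.

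The number of the 8 genes called moved by more than 1.5 times in these settings. The share of all genes called in the same setting stands in parentheses. Without a filter it was 5 for cHCs against SCs (4.07%), 6 for OHCs at P22 against cHCs (6.79%), 3 for OHCs at P7 against cHCs (2.38%), 5 for OHCs at P22 against P7 (3.6%) and 5 for IHCs against OHCs at P22 (4.94%). DESeq2 gave 6 (16.1%), 3 (6.66%), 3 (9.71%) and 4 (12.1%) in the last 4 of these. With limma-voom it was 3 for OHCs at P7 against cHCs (2.24%) and 2 for OHCs at P22 against P7 (0.651%), and with the filter of more than 35 CPM 2 for OHCs at P22 against P7 (3.28%) and 4 for IHCs against OHCs at P22 (5.97%). Fitting only the cell types compared gave 2 for OHCs at P7 against cHCs (0.445%). Fits that left out a library kept a lone library in a group, and their numbers of calls are not compared here.

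With the files as attached to the records, 0 of the 8 genes were called in each of the 10 comparisons, against 0% of all genes tested. Of the 31 calls, 23 were lost in the same direction and 8 changed direction. There the log2 difference of *Pvalb* became -1.38 (cHCs against SCs), 0.086 (OHCs at P22 against cHCs), 2.64 (OHCs at P7 against cHCs, not called as reported), -1.30 (OHCs at P22 against SCs) and -2.52 (IHCs against SCs). That of *Calb2* became -0.69 (OHCs at P22 against SCs), that of *Ocm* -0.11 (OHCs at P7 against cHCs) and -3.47 (IHCs against cHCs), and that of *S100a1* in cHCs against SCs 0.32. Other values that were not called also turned, for cHCs against SCs in *S100b* (-0.13) and *Atp2b1* (-0.41), for OHCs at P22 against SCs in *Calb1* (-2.85) and *Atp2b1* (-0.65), and for IHCs against SCs in *Atp2b2* (-0.80).

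The remaining changes of direction concerned values that were not called as reported. With limma-voom the difference was -0.014 for *Ocm* in cHCs against SCs, and for *S100a1* 0.05 in OHCs at P7 and 0.59 in IHCs against cHCs. *Atp2b1* in OHCs at P22 against SCs, 0.02 as reported, was -0.027 without a filter, -0.071 with 10 counts in every library, -0.067 with more than 35 CPM and -0.055 in the fit of those cell types only. Leaving out a library gave ranges across 0 for *Ocm* (-0.63 to 0.76) and *S100b* (-0.55 to 2.11) in cHCs against SCs, *S100a1* (-1.36 to 0.89) and *Atp2b1* (-0.10 to 0.76) in OHCs at P7 against cHCs, *S100a1* in IHCs against cHCs (-0.84 to 1.42), *S100b* in IHCs against OHCs at P7 (-3.12 to 0.35), *Calb1* (-1.47 to 3.96) and *Atp2b1* (-1.23 to 0.74) in OHCs at P22 against SCs, and *Atp2b2* in IHCs against SCs (-0.85 to 3.69).

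With the longest transcript as length, *Ocm* held 71% and *Calb1* 7.33% of the buffer sum in OHCs at P7 and *S100a1* 60% in IHCs, and the ratio of *Atp2b2* to *Atp2b1* was 0.939 in cHCs, 1.69 in OHCs at P7 and 0.16 in IHCs. Leaving out a library gave a ratio of 0.018 to 0.962 in SCs and of 3.45 to 28.8 in OHCs at P22.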
